A study of Mus musculus with 15 samples.

Results

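Binding sites of SAM68 on RNA were compared between day 10 embryoid bodies and undifferentiated mouse embryonic stem cells (day 0). A gene entered when its Ensembl ID held 5 or more sites over the day 0 and day 10 lists together. This took in 3745 of the 7451 genes with a site on either day, and of 7949 genes with a site on any day of the study. These genes held 90.6% of the day 0 sites and 93.7% of the day 10 sites. A symbol was found for 3632 of them, and the other 113 IDs are counted without a name. The position of sites along genes was described for the 561 genes with 10 or more sites in both lists.

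SAM68 (Khdrbs1) belongs to the STAR proteins, which bind RNA through a KH-type domain flanked by conserved regions. It binds A- and U-rich motifs such as UAAA and UUAA, mostly in introns of unspliced RNA, and is known for its part in alternative splicing, in the choice of poly(A) sites and in signalling downstream of Src-type kinases. In iCLIP2, ultraviolet light joins the protein to RNA at the place of contact, an antibody recovers the complex, and reverse transcription stops at the crosslinked nucleotide, which marks the site.

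All samples were the E14 line, with no other genotype or agent named in the labels. Day 0 cells grew without feeders on gelatin, with LIF and the inhibitors CHIR-99021 and PD0325901, which hold stem cells in the naive state. Day 10 bodies were formed by plating stem cells straight into Corning spheroid microplates, in medium with serum. Day 3 bodies, used here only as a time point in between, were made in hanging drops. The culture format and the day therefore cannot be told apart. All 3 groups received the same ultraviolet dose of 150 mJ/cm2, the bodies after being dissociated. The labels give 5 libraries per day, and nothing in them says whether the 5 came from separate cultures. The study's title refers to cardiogenesis, and the comparison of day 10 with day 0 asks which RNAs SAM68 occupies before and late in differentiation.

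The deposited values were 1 list of sites per day for all 5 libraries, with 29740 sites on day 0, 28266 on day 3 and 74287 on day 10. The lists carry no value per library and no read counts. The spread between replicates and the depth are therefore unknown, no test was made and no p-value is given. The day 10 list was 2.50 times as long as the day 0 list, so a gene's sites were divided by the length of the list and given as sites per 10000. A fold is the ratio of these shares. Its interval is an exact conditional binomial 95% interval that covers counting error alone and treats sites as independent, which sites of one gene are not. RNA abundance was not used, so more RNA of a gene and more SAM68 per RNA cannot be told apart, nor can more cells of a type and more RNA per cell.

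The labelled states were set against marker genes. Of 12 markers of pluripotent stem cells, 9 held a site on day 0 and 2 on day 10, with 168 and 6 sites. Sox2, Klf2 and Dppa3 held none on either day. Cardiomyocyte markers held no site on day 0, and 6 of 12 held 571 on day 10, of which 439 lay in Slc8a1, while Myh7, Tnni3, Nkx2-5, Myl7, Myl2 and Nppa were at 0. Endoderm markers went from 0 to 263 sites in 9 of 12 genes, most of them in Gata4 (111), Dab2 (80), Gata6 (33) and Apob (29). Of these, Gata4 and Gata6 are factors of the heart too. Afp, Ttr, Apoa1, Hnf4a and Cubn held 1 to 4 sites each, and Sox17, Foxa2 and Amn were at 0. Markers of smooth muscle and mesenchyme went from 0 to 76 sites in 7 of 12 genes. Endothelial markers held 6 and 39 sites, or 2.02 and 5.25 per 10000 sites of the list. All 6 on day 0 lay in Pecam1, which held 0 on day 10. The day 10 sites lay in Flt1 (29), Tek (9) and Cdh5 (1), and Kdr, Tie1, Emcn and Erg were at 0. Epithelial markers held 13 and 25 sites, or 4.37 and 3.36 per 10000. Blood markers held 0 and 2, and none of the 10 neural markers held a site on either day. The part of different cell types in each gene's sites was not tested.

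Sequence was at hand only for the windows from 250 nt before to 50 nt after annotated gene starts (RefSeq, GRCm38.p6). The authors' sites are on GRCm38, whose chromosome coordinates do not differ between patch releases. Sites on 1 chromosome were left out. These windows held 74 day 0 sites and 133 day 10 sites with 12 nt known on either side, and 42 of them overlapped between the days, in 36 genes. Of these 42 shared sites, 30 lay in 25 ribosomal protein genes. A run of 8 or more pyrimidines (C or T) stood in the 25 nt around 71.4% of the shared sites, and the median longest run was 11 nt. All 25 nt windows placed within 20 nt of a start contained such a run in 9.53% of cases, and those of ribosomal protein genes in 24.4%. The following 25 nt windows are centred on sites called at the identical nucleotide on both days in genes of the kept class defined below. They were picked among such sites as examples with a run of 8 or more pyrimidines. Sites at the identical nucleotide without such a run, as in the kept genes Homer1, Sympk and Tmsb10, are not shown. The windows are written 5′ to 3′ on the strand of the RNA with the longest pyrimidine run in capitals.
Rpl27a, chr7:109519187-109519211, plus strand: tgagCTCCTCCCTTTTCCCTTTCTg
Rpl34, chr3:130730332-130730356, minus strand: cgCCCCTTCCTTTTCCTCTTCCggg
Rps24, chr14:24490708-24490732, plus strand: gtgagcggTCCTCTTTTCCTCCTCT
Rps18, chr17:33955651-33955675, minus strand: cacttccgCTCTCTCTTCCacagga
Rpl38, chr11:114668577-114668601, plus strand: gTTCTTTCCCCgttctcttcggttc
Rps26, chr10:128626491-128626515, minus strand: caagccgccggaTCCTCTTTCgagt

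The pyrimidine run also stood around sites that were not shared, 21.9% of the 32 on day 0 and 42.9% of the 91 on day 10, against 9.90% of all 25 nt windows across the 300 nt around starts. The letters TAAA or TTAA, the DNA form of the motif for which SAM68 is known, were searched on the strand of the RNA only; the 2 overlap in TTAAA. They stood around 3 of the 42 shared sites (7.14%), around 8 of the 32 day 0 sites that were not shared and around 17 of the 91 day 10 sites that were not shared (18.7%). Of all 25 nt windows across the 300 nt, 11.7% contained them. The motif is in capitals in the next windows, which come from one gene with sites on both days, a pair of genes of the gained class and a gene of the lost class. In Farp1, which encodes a guanine nucleotide exchange factor, and in Magi1, which encodes a scaffold of cell junctions, the site lies inside the gene, near the annotated start of another transcript.
Ddx17, both days, chr15:79532933-79532957, minus strand: ttttTTAAttatttctatcacagaa
Farp1, day 10, chr14:121248509-121248533, plus strand: ttgggaacaagattTTAAAaggggg
Magi1, day 10, chr6:94237635-94237659, minus strand: tttgagaatttttttTTAAAgcatt
Platr14, day 0, chr2:104559268-104559292, plus strand: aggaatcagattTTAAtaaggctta
A match is a description of these letters, and most sites lie far from gene starts, where no sequence was used.

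Genes were sorted by the ratio of shares with a pseudocount of 1 site, split over the lists by their length. A gene is called gained at 4-fold or more with an interval above 1, lost at 0.25-fold or less with an interval below 1, and kept with sites on both days and a ratio between 0.5 and 2. By these limits 426 genes were gained (11.4% of the 3745), 421 were lost (11.2%) and 1624 were kept (43.4%), and 1274 lay in between (34.0%). Of the gained genes 284 had no site on day 0, and of the lost genes 161 had no site on day 10, where 16.5% and 4.30% of all 3745 genes had none on the respective day. The gained genes held 401 sites on day 0, 2488 on day 3 and 21784 on day 10, or 1.35%, 8.80% and 29.3% of the lists. The lost genes held 7510, 2933 and 1463 sites, or 25.3%, 10.4% and 1.97%. The kept genes held close to the same share of every list, 41.1%, 44.5% and 39.8%. Near the upper limit, Utrn with 10 and 105 sites and Mycbp2 with 9 and 95 fell just inside the gained class, and Ptk7 and Rc3h1 with 2 and 24 just outside. Near the lower limit, Asxl2 with 53 and 32 sites and Anapc10 with 26 and 15 fell just inside the lost class, and Vegfc with 16 and 9 just outside. How many genes fall on each side depends on the scaling. With lists scaled by the median ratio of genes with 10 or more sites in both, the median log2 ratio of all genes moved from 0.07 to 0.54 and the classes held 586 gained and 301 lost genes, so that 66.1% of called genes were gained against 50.3% as given above. With no filter on sites the classes held 426 and 568 genes (42.9% gained), so the order of both counts rests on the settings. The ratios below are to be read against that shift of scale. Under median scaling all 426 gained genes stayed gained, while 120 of the 421 lost genes left the class. Of the lost genes named below, Wwox, Pias2, Immp2l, Epha4 and Ipo11 lie within that shift of the limit.

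**Figure D1:**
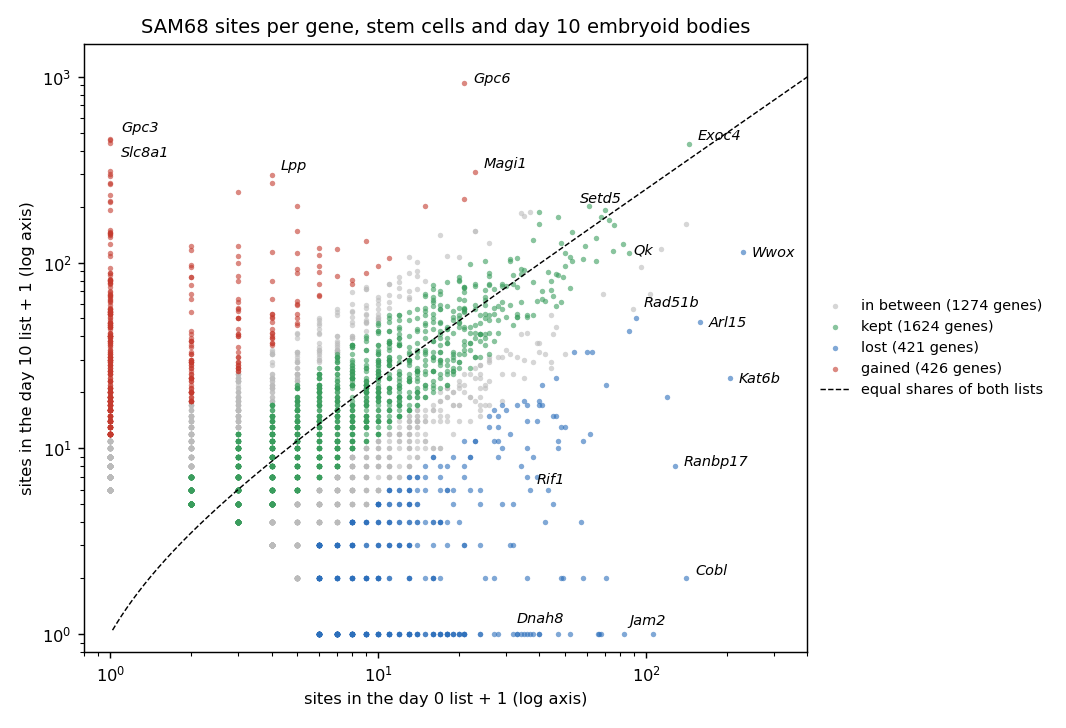
Sites per gene in the day 0 list (horizontal) and the day 10 list (vertical), each plus 1 on a log axis; a point is 1 of 3745 genes, coloured by class, and the dashed line marks equal shares of both lists. Gained genes form a column at 0 day 0 sites that reaches 459 sites in Gpc3, and Gpc6 stands above all others with 919.

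Among the gained genes with 20 or more sites, Gpc6 had the largest difference of shares. It encodes a glypican, a cell surface proteoglycan that carries heparan sulfate, and lies on the plus strand at chr14:116924920-117979529. It counted 20 sites in the stem cells, 39 on day 3 and 919 on day 10. Per length of the gene this is 0.0190 sites per kb on day 0 and 0.871 on day 10. Gpc3, a shorter glypican gene of the X chromosome, held 0, 25 and 459 sites, and its 1.34 sites per kb on day 10 were above those of Gpc6. Slc8a1, which exchanges sodium for calcium across the membrane of heart muscle cells, held 0, 0 and 439 sites, or 1.20 per kb on day 10.

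Airn, the long antisense transcript that silences the imprinted Igf2r locus, was the densest of the 15 largest gained genes. Its 267 day 10 sites amounted to 2.25 per kb, against 3 sites on day 0 and 2 on day 3. It overlaps Igf2r on the other strand. Lpp, a LIM protein of focal adhesions, held 3, 7 and 295 sites, a fold of 39.4 (13.3 to 192). Magi1 was the member of this set with most day 0 sites, with 22, 97 and 306, and its fold was the smallest, 5.57 (3.61 to 9.02). The day 3 list was not used to choose these genes, and it divides them. Rbms3, Arhgap6, Unc5c, Pcdh7, Tmem108, Nfia and Slc8a1 had no site on day 3, while Grip1, an adaptor of membrane receptors, held 90 sites there, or 31.8 per 10000 against 61.2 on day 10, and Magi1 held 34.3 against 41.2.

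The 10 genes with most sites held 18.5% of the day 10 sites of the gained class and the 50 with most sites 44.9%. In the lost class, which is about as large, the corresponding shares of day 0 sites were near these, at 17.8% and 43.3%.

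Gained genes were long. Their median annotated span was 132 kb, against 57.3 kb for lost genes, 47.2 kb for kept genes and 55.9 kb over all 3632 genes with a span. A span of 200 kb or more was found for 149 of the 426 gained genes (35.0%), 45 of the 421 lost genes (10.7%) and 101 of the 1624 kept genes (6.22%). Over all 3745 genes it was 392 (10.5%), close to the lost share. These percents count genes without a known span as shorter, and a span was known for 418 gained, 391 lost and 1578 kept genes. Seen by length, the gained share climbed from 2.56% of the 780 genes under 25 kb to 5.06%, 9.35%, 18.6% and 35.2% in the next bins and 44.5% of the 119 genes of 400 kb or more. The lost share did not follow length and lay between 8.97% and 12.3% in every bin. The kept share went from 51.4% in the shortest to 17.7% in the longest bin. Long genes have more room for sites, and passing the limits with an interval above 1 needs sites, so length is not independent of the rule. The demand is also unequal between the classes, because a gene without sites on the other day needed 11 day 10 sites to be gained (such as Rab31) and 5 day 0 sites to be lost (such as Hormad1).

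**Figure D2:**
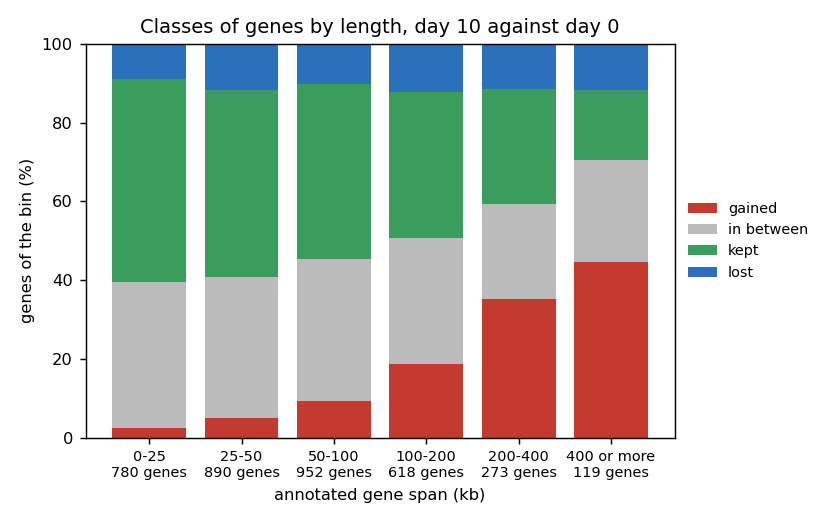
Percent of genes of each class (stacked bars, vertical axis) by annotated gene span in kb (horizontal axis, with the number of genes per bin). The red gained part grows from 2.56% in the shortest bin to 44.5% in the longest, while the blue lost part stays between 8.97% and 12.3%.

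Of the lost genes, Kat6b had the largest difference of shares. It encodes a histone acetyltransferase and lies on the plus strand at chr14:21499216-21672478. Its sites numbered 204 on day 0, 40 on day 3 and 23 on day 10, and its fold was 0.0451 (0.0280 to 0.0696). Tet1, an enzyme that oxidises methylated cytosine in stem cells, held 66, 24 and 0 sites. Aff1, a subunit of the super elongation complex, held 70, 10 and 1. Trps1, a GATA-type repressor, held 119, 12 and 18, and Zfp704, a zinc finger protein, 70, 11 and 21. In each of these 5 genes the day 3 number was under 0.5 of the day 0 number.

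Other lost genes kept a part of their sites, and the label of Wwox, Pias2 and Immp2l depends on the scaling. Wwox, an oxidoreductase with WW domains in a common fragile site, held 229, 45 and 113 sites and so had more on day 10 than on day 3, while its share was close on these days, at 15.9 and 15.2 per 10000. Arl15, a small GTPase of the ARF family, held 158, 69 and 47 sites, a fold of 0.119 (0.0841 to 0.166). Pias2, a SUMO ligase, held 91, 31 and 49, and Immp2l, a peptidase subunit of the mitochondrial inner membrane, 85, 22 and 42. Ranbp17, of the family of nuclear transport receptors, held 127, 46 and 7. Cobl, an actin nucleator, and Sh3gl2, an endophilin of synaptic vesicle uptake, each kept 1 site, from 140 and 57. Jam2, Bcat1 and Sgcz kept none, from 82, 67 and 65. A unitary pseudogene on the X chromosome without a symbol, ENSMUSG00000031325, held 105, 2 and 0 sites.

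The 15 kept genes with most sites include 2 noncoding RNAs, Kcnq1ot1 and Dleu2. Exoc4, a subunit of the exocyst that tethers vesicles at the plasma membrane, held 143, 175 and 435 sites, or 48.1, 61.9 and 58.6 per 10000, and the interval of its fold from day 0 to day 10 was 1.01 to 1.48. Setd5, a SET domain protein, held 67, 69 and 174, a fold of 1.04 (0.780 to 1.40). Kansl1, a scaffold of the NSL acetyltransferase complex, held 72, 67 and 169, a fold of 0.940 (0.709 to 1.26). The share of these genes was near constant over all 3 days, at 22.5, 24.4 and 23.4 per 10000 for Setd5 and 24.2, 23.7 and 22.8 for Kansl1.

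The kept class was defined by days 0 and 10 alone, and some of its genes differed on day 3. Tead1, the DNA-binding partner of YAP, held 23.2 sites per 10000 on day 0, 7.43 on day 3 and 25.6 on day 10. Qk, a STAR protein like SAM68, held 27.2, 9.91 and 16.8 per 10000. The host transcript Dleu2 held 58, 9 and 122 sites. In the opposite direction, Rbpms, an RNA-binding protein of muscle, held 20.2, 52.7 and 27.1 per 10000, and Msi2, a translational regulator, 13.1, 32.2 and 21.5. Among the kept genes with most sites, Setd5 was the densest on day 10 at 2.28 sites per kb, followed by the imprinted antisense RNA Kcnq1ot1 at 1.89, and Msi2 was the sparsest at 0.422.

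Ribosomal protein genes, whose start windows are printed above, stayed out of both outer classes. Of 63 that entered, 38 were kept, 25 lay in between and none was gained or lost, against 11.4% and 11.2% of all genes. Their sites numbered 262 and 392, and their median log2 ratio was -0.72 beside 0.07 over all genes. With so few sites over 63 genes, the rule had little room to call them. A gene without day 0 sites needed 11 on day 10 to be gained. Their absence from both outer classes is therefore no evidence that their binding was stable.

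Over all classes, day 3 lay between day 0 and day 10 for gained and lost genes. A day 3 site was present in 62.2% of gained genes (265 of 426, exact binomial interval 57.4% to 66.8%), 80.3% of lost genes (338 of 421, 76.2% to 84.0%) and 90.3% of kept genes (88.7% to 91.7%). Among genes in between it was 78.0% (994 of 1274), so the lost share is close to that of genes in neither outer class nor kept. The median gained gene held 0, 0.708 and 3.90 sites per 10000 on the 3 days, the median lost gene 3.36, 1.06 and 0.135, and the median kept gene 1.35, 1.42 and 1.35. The day 3 share was nearer to day 0 than to day 10 in 59.6% of gained and 61.3% of lost genes, beside 52.6% of kept genes and 55.8% of those in between. This measure added 0.5 sites to each count, so where a gene held no site it depends on the list lengths.

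Gene lists of related function were laid over the classes. Each list's counts are read beside the 11.4% gained, 11.2% lost and 43.4% kept of all genes. The overall median log2 ratio was 0.07. These values are not adjusted for gene length, and the gained share was 2.56% under 25 kb and 44.5% at 400 kb or more. Spans ran from 39.8 kb (Sema4b) to 1555 kb (Robo2) in the guidance list and from 46.1 kb (Cdh3) to 592.5 kb (Fat3) among cadherins. The part of length in a list's gained share was not tested. The ligands and receptors of guidance signalling gave the most gained genes of any list. Of 18 that entered, 12 were gained, 2 lost, 2 kept and 2 in between, with a median log2 ratio of 3.68. Among ligands, Efna5, an ephrin, held 0, 7 and 211 sites, in the order of days 0, 3 and 10 that is kept in all lists below. Among receptors, Unc5c, a netrin receptor, held 0, 0 and 291, Nrp1, the semaphorin and VEGF co-receptor, 0, 0 and 190, and Robo2, a receptor of SLIT ligands, 0, 0 and 149. The lost pair was Epha4, an ephrin receptor, with 29, 0 and 15 sites and Sema4b, a semaphorin, with 6, 0 and 1.

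Cadherins and protocadherins, the calcium-dependent adhesion proteins, had a median log2 ratio of 4.93 over 8 genes. Of these, 5 were gained and none lost. Pcdh7 held 0, 0 and 267 sites, Cdh11, a cadherin of mesenchyme, 1, 0 and 96, Cdh2 0, 0 and 69, Cdh6 0, 0 and 52 and Cdh3 0, 5 and 52. The kept gene was Fat1, with 4, 5 and 13 sites. Cdh1, the cadherin of stem cells and epithelia, held 13, 25 and 14 and lay in between.

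Core proteins and enzymes of heparan sulfate were split within each role. Among the core proteins, the glypicans Gpc6 and Gpc3 were gained, while the basement membrane proteins Agrn, with 6, 3 and 23 sites, and Hspg2, with 7, 2 and 15, were kept. Ext1, which polymerises the sugar chain, held 20, 88 and 219 sites and was gained with a fold of 4.38 (2.77 to 7.32), and Ext2, its partner, held 1, 1 and 5 and was kept. Of the sulfotransferases, Hs6st3, with 1, 1 and 29 sites, Hs3st3b1, with 0, 0 and 19, and Hs6st2, with 0, 10 and 16, were gained. Hs2st1, with 13, 14 and 36 sites, was kept, and Hs6st1, with 8, 2 and 1, was lost, as was Sulf2, with 5, 1 and 2, which removes sulfate outside the cell. In all, 6 of 13 were gained, 2 lost, 4 kept and 1 in between, and the median log2 ratio was 2.10. The gene in between was Sulf1, with 0, 60 and 6 sites, most of them on day 3.

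Transcription factors that pattern the embryo followed. Of 6 genes of the homeobox and retinoic acid group, 4 were gained and none was lost or kept, with a median log2 ratio of 3.80. Pbx3 held 4, 27 and 147 sites and Meis1 1, 0 and 75, and Rarb, a retinoic acid receptor, held 0, 0 and 20. Meis2, with 36, 1 and 186, lay in between. Of 15 nuclear factor I, SOX and forkhead genes, 5 were gained, 4 kept and none lost, with a median of 1.54. Nfia held 0, 0 and 212 sites, while its paralogue Nfib held 34, 3 and 90 and was kept. Sox5, a SOX factor of cartilage and glia, held 0, 0 and 53, and Foxo3, a forkhead factor under insulin control, 9, 11 and 48.

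Of 17 genes of insulin, PI3K and mTOR signalling, 6 were gained, 8 kept and none lost, with a median log2 ratio of 1.05. The receptor Igf1r held 2, 33 and 79 sites and was gained. The RNA-binding proteins of Igf2 mRNA that the list also holds differed among themselves, with Igf2bp2 gained at 5, 11 and 88 sites and Igf2bp3 kept at 24, 30 and 70. Receptor tyrosine kinases gave 3 gained genes of 10, none lost and a median of 2.47. Ror1, a Wnt receptor, held 0, 10 and 92 sites and was gained, and its relative Ror2 held 23, 10 and 27 and lay in between.

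Phosphodiesterases, kinases and anchoring proteins of cyclic nucleotides were spread over all classes, with 4 of 15 gained, 3 lost and 3 kept. Prkg1, the cGMP-dependent kinase of smooth muscle, held 0, 0 and 140 sites, and Pde3a, a phosphodiesterase of heart and vessels, 0, 0 and 107. Akap12, an anchoring protein of kinase A, held 46, 46 and 10 and was lost.

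Hippo pathway genes were mainly kept or in between. Of 15, 7 were kept, 7 lay in between, 1 was gained and none was lost. The nuclear effector Yap1 held 6, 15 and 39 sites, the kinase Stk3 8, 6 and 42 and the adaptor Wwc2 13, 0 and 43. The gained gene was Amot, an angiomotin that binds YAP, with 0, 2 and 19. Vesicle transport was the largest list, with 52 genes, of which 25 were kept, 5 gained and 1 lost, and a median log2 ratio of 0.39. Rab2a held 6, 8 and 55 sites, Rabep1 17, 8 and 44 and Rabgap1 24, 22 and 52, and the lost gene was Rab30, with 5, 0 and 2.

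Genes of integrins and focal adhesions gave 2 gained of 10, Itgb1 with 5, 8 and 66 sites and Parva with 0, 0 and 67, beside 4 kept and 1 lost, Tns3, with 13, 1 and 4. The receptor-type tyrosine phosphatases gave 1 gained of 8, Ptprm, with 0, 0 and 15 sites, while Ptprk held 25, 35 and 84 and was kept. Of 3 potassium channel genes, Kcnq5 was gained, with 1, 1 and 122 sites. Of 9 synaptic genes, 2 were gained (Grip1 and the glutamate receptor Gria3, with 0, 0 and 27), 2 lost, 2 kept and 3 in between. Their median log2 ratio was 1.66. Grik3 and Rims2, a glutamate receptor and a vesicle-release protein, held 36 and 35 sites on day 0 and none on day 10, and Dlg1, a scaffold also of epithelia, held 52, 43 and 145.

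Germline and genome maintenance genes made up the other end. Of 8 germline genes 6 were lost, 1 kept and none gained, with a median log2 ratio of -3.93. Rnf17, a tudor protein of germ cells, held 51, 25 and 0 sites, Tex14, of intercellular bridges in the testis, 47, 1 and 1, and Hormad2, of the meiotic chromosome axis, 32, 12 and 0. Tdrd3, a tudor protein found in many tissues, held 7, 10 and 47. Of 18 genes of DNA replication and repair 9 were lost, 4 kept and none gained, with a median of -2.13. Pola1, the catalytic subunit of DNA polymerase alpha, held 57, 45 and 10 sites and Rif1, which controls replication timing, 35, 27 and 6. In both, unlike Tet1 and Aff1, the day 3 number was above 0.5 of the day 0 number. Rad51b, a paralogue of the recombinase, held 88, 77 and 55 and lay in between, and Mcm9, a helicase of repair, held 9, 10 and 20 and was kept.

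The microtubule motors, the nuclear transport genes and the mRNA decay genes had medians below that of all genes. Of 21 motors, 5 were lost, 3 gained and 6 kept, with a median log2 ratio of -0.98. Dnah8, an axonemal dynein, held 34, 12 and 0 sites, and Kif26b, a kinesin of kidney development, 0, 0 and 29. Of 28 nuclear pore and transport genes, 12 were kept, 4 lost and none gained, with a median of -1.11. The exportin Xpo7 held 22, 63 and 76 sites and the importin Tnpo1 27, 17 and 48, and both were kept, while Ipo11, with 28, 14 and 16, was lost. mRNA decay and 3′ end processing had the largest kept share of the 20 lists, 14 of 24 genes, and a median of -0.58. Cnot1, the scaffold of the CCR4-NOT deadenylase, held 48, 16 and 83 sites, Pan3 24, 29 and 62 and Smg1, a kinase of nonsense-mediated decay, 32, 21 and 50. The gained gene was Cnot6l, a catalytic deadenylase subunit, with 1, 2 and 29.

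**Figure D3:**
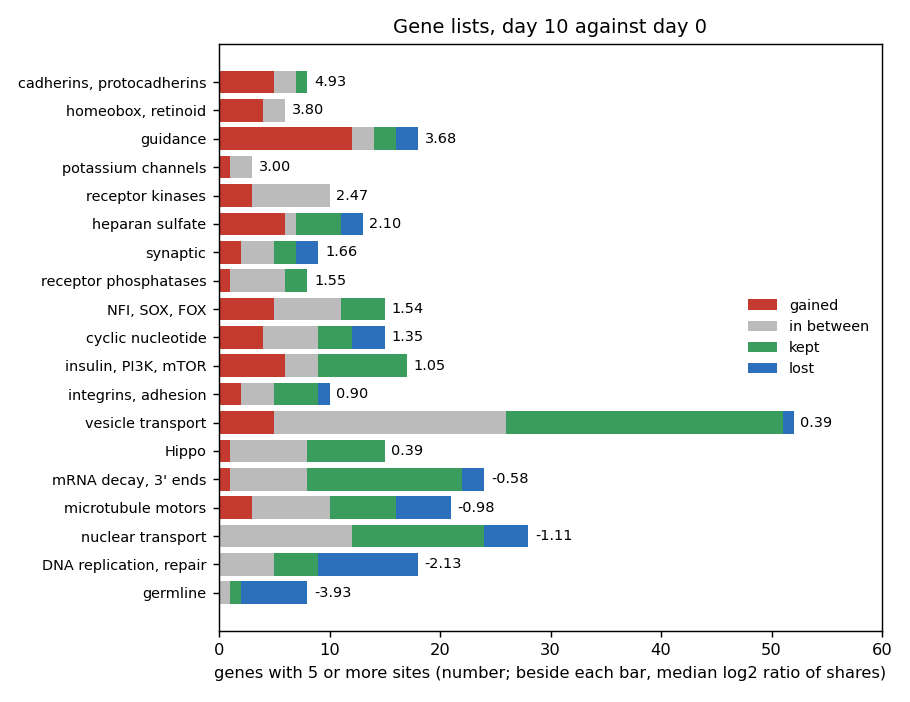
Number of genes of each list shown (horizontal axis) that were gained, in between, kept or lost on day 10 against day 0, sorted by the median log2 ratio of shares printed beside each bar. Cadherins (4.93), the homeobox and retinoid group (3.80) and guidance genes (3.68) stand at the top, and DNA replication and repair (-2.13) and germline genes (-3.93) at the bottom.

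Single positions were compared next. A site was counted as shared when it overlapped a site of the other day by 1 nt or more on the same strand. Of the day 0 sites 7178 of 29740 (24.1%, exact binomial interval 23.7% to 24.6%) were shared, and 3184 of these were called at the identical 5 nt. Of the day 10 sites 9.68% were shared (9.47% to 9.90%). In kept genes 34.9% of day 0 sites (34.0% to 35.7%) and 14.5% of day 10 sites were shared. In gained genes, of the 401 day 0 sites 199 were found again (49.6%), yet shared sites made up 0.918% of their day 10 sites. In lost genes the order was turned, with 6.55% of day 0 sites and 33.2% of day 10 sites shared. The number of sites on the other day, which chose the classes, bears on all these shares.

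Around a day 0 site of a kept gene, the density of day 10 sites of that gene was 39.2 per kb within 4 nt and 5.93 per kb at 5 to 9 nt. It was 1.33 per kb at 100 to 199 nt, slightly above the bin before, and 0.479 per kb at 5000 to 9999 nt. Gained and lost genes had profiles of the same form at another height, with 55.4 and 7.29 per kb within 4 nt. Within 1000 nt of a day 0 site, a day 10 site was found for 83.6% of day 0 sites in kept genes and 23.5% in lost genes.

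**Figure D4:**
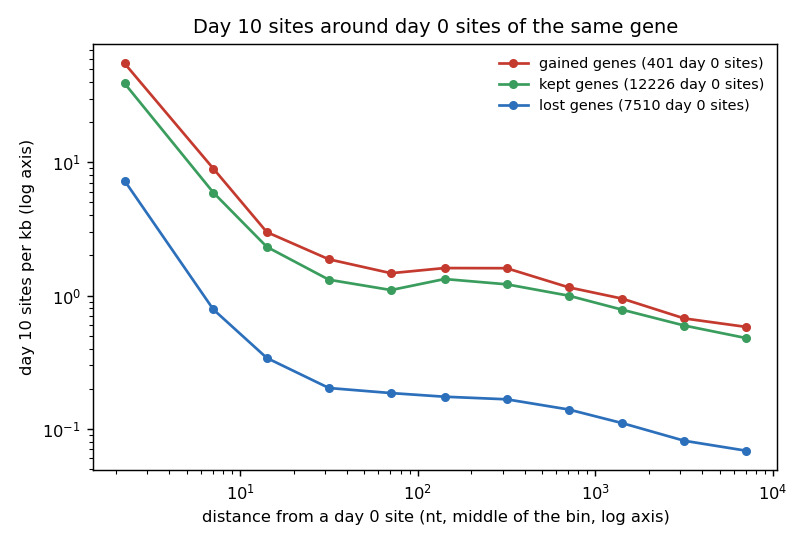
Density of day 10 sites of the same gene (per kb, log axis) against the distance from a day 0 site (nt, log axis, 0 to 9999 nt in 11 bins), for gained, kept and lost genes. All 3 lines fall steeply over the first 20 nt and slowly after that; the line of kept genes starts at 39.2 and ends at 0.479 per kb.

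Summed over genes, the sites were spread alike along the annotated span on both days. Opposite shifts of single genes cancel in such a sum. Of the 561 genes with 10 or more sites in both lists, 555 had an annotated span, on which each site was placed from 0 at the 5′ end to 1 at the 3′ end. Each of 10 equal segments of these genes held nearly the same percent of sites on both days, 9.64% and 9.58% in the first from the 5′ end, and the largest difference was 0.599 percentage points in the ninth. The shift of a gene's median position from day 0 to day 10 had a median of 0.003, with quartiles of -0.055 and 0.060. In 365 genes (65.8%) it was under 0.1 in size, while 38 genes shifted by 0.2 or more towards the 3′ end and 42 towards the 5′ end. Large shifts were more frequent in genes with few sites. Of 217 genes with 10 to 14 day 0 sites, 18 shifted by 0.2 or more towards the 3′ end and 25 towards the 5′ end. Of 107 genes with 30 or more day 0 sites, 6 and 2 did.

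The common share of both profiles was computed over 20 equal bins, with 1 for identical and 0 for separate profiles. Its median was 0.617, with quartiles of 0.536 and 0.690, and 466 of 555 genes reached 0.5. It rose with the number of day 0 sites, from 0.573 in genes with 10 to 14 to 0.620 with 15 to 29 and 0.701 with 30 or more, so its level depends on the number of sites. No common share for unrelated positions at these numbers is given here to set it against. Over the 408 genes with 10 or more sites on all 3 days, the median was 0.626 for day 0 and day 10, 0.619 for day 0 and day 3 and 0.630 for day 3 and day 10. Genes of the lost class in this set numbered 39, with a median common share of 0.550, against 0.629 for 357 kept genes.

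Some genes repeated their pattern closely. Etl4, a long gene on chromosome 2, had the highest common share, 0.867, with 140 and 161 sites that all lay past its midpoint. Rbm26, an RNA-binding protein, followed with 0.861, over 38 and 61 sites. Exoc4 reached 0.855, with median positions of 0.476 and 0.482. Wwox reached 0.848, although it was lost under the scaling by list length, and 38 of its 229 day 0 sites were shared. Syncrip, an hnRNP-like RNA-binding protein in a gene of 33.2 kb, reached 0.852 with 11 and 16 sites. Jarid2, which recruits the Polycomb machinery, reached 0.839 with 35 and 51 sites. Luc7l2, a splicing protein of the U1 snRNP, reached 0.837 and shared 26 of its 49 day 0 sites.

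In other genes the median position or the profile differed between the days. These genes are the extremes of 555, and most of them had few sites on a day. Whether their shifts exceed what few sites alone would give was not tested. Tenm4, a teneurin of the cell surface, had the lowest common share, 0.208. Its 44 day 0 sites had a median position of 0.304 and its 14 day 10 sites one of 0.711, and 36.4% and 92.9% of them lay past the midpoint of the gene. Rbpj, the DNA-binding effector of Notch, went from a median of 0.226 with 45 sites to 0.704 with 14, and its sites past the midpoint from 20.0% to 64.3%. Mpp7, a polarity scaffold, went from 0.0711 to 0.519, with 66.7% of its 12 day 0 sites in the first of the 10 segments. Slc6a6, the taurine transporter, had the largest 3′ shift, from 0.25 to 0.951, with 10 and 13 sites. Larp4, a protein that binds poly(A) tails, had the largest 5′ shift, from 0.919 to 0.288, with 11 and 21 sites. St6galnac3, a sialyltransferase, went from 0.661 to 0.232 with 28 and 30 sites. Past the midpoint lay 57.1% and 33.3% of them, and both sets also had sites in the first of the 10 segments. Where sites fall in a pair of groups, as in Slc6a6 and Larp4, the median jumps between them, and their common shares were 0.608 and 0.515.

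Malat1, a long noncoding RNA of nuclear speckles that spans 6.98 kb, was a case apart. All 11 of its day 0 sites were found again on day 10, among 65. Its median position moved from 0.476 to 0.0752, and most of its day 10 sites lay near the 5′ end. Ddx17, an RNA helicase whose sites include the TTAA window printed above, had 27 and 30 sites and shared 21 of its day 0 sites, 77.8%. Bbx, an HMG box factor, shared 10 of 14 while its sites grew to 200. Across all 555 genes a median of 28.6% of day 0 sites was shared, 58 genes shared 50% or more and 2 shared none.

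**Figure D5:**
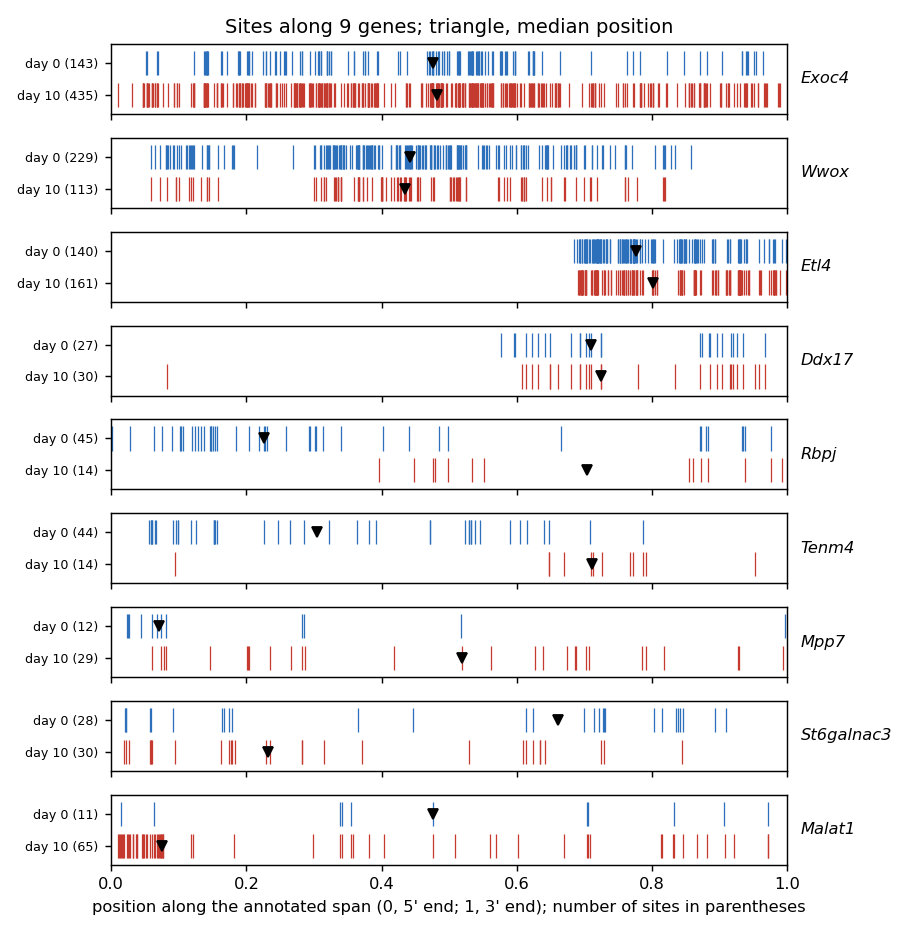
Positions of day 0 sites (blue) and day 10 sites (red) along 9 genes, from the 5′ end (0) to the 3′ end (1) of the annotated span, with the number of sites in parentheses and the median position as a black triangle. In Exoc4, Wwox, Etl4 and Ddx17 both rows look alike, in Rbpj, Tenm4 and Mpp7 the triangle lies further towards the 3′ end on day 10, and in St6galnac3 and Malat1 further towards the 5′ end.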

How the data were processed

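SAM68 iCLIP2 sites of 10 libraries (5 for day 0 and 5 for day 10) were compared, with the 5 day 3 libraries as an additional time point. The submitters' processing notes list, without roles, STAR 2.7.11a, bedtools 2.31.1, SAMtools 1.22.1, UMI-tools 1.1.6, MultiQC 1.31 and FastQC 0.12.1 and the genome builds GRCh38.p14 and GRCm38.p5. Which program called the sites, whether replicates had to agree and how libraries were joined is not given in the sources used here. Per the file headers, each site was given to a gene and sites where genes overlap were dropped. The deposited score of every site is 0 and was not used.

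IDs were named by position from a RefSeq table of GRCm38.p6: the gene of the same class, on the same strand where known, holding at least 70% of the ID's sites. This named 7476 of 7949 IDs (94.0%). The build was checked by moving all sites by 1 Mb, which lowered the share of protein-coding sites inside RefSeq protein-coding genes from 98.9% to 46.6%. Shares, fold ratios and log2 ratios were computed here from the deposited positions and steps tested on simulated data, with Python 3.11.15, NumPy 2.4.6, pandas 2.3.3, SciPy 1.17.1 and matplotlib 3.10.9.

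The genes, the 20 lists and all limits were chosen with earlier results of these data known; 6 symbols that a list's pattern caught by spelling alone were taken out. Genes are named as the 15 gained and 15 lost with 20 or more sites and the largest difference of shares, the 15 kept and the 4 of each list with most sites, 8 for each pattern along genes, and 2 on each side of a limit. Other genes that complete a small count, the ID without a symbol and the genes of the printed windows were chosen after their values were seen. No sequence on chromosome 18 was read. Alternatives changed the fold, the filter, the pseudocount, the scaling, the merging of sites within 50 nt, the overlap and the bins. Some named genes and 1 list are not reported here.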

Additional observations from a re-analysis of the deposited data

How the results depend on the processing

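Gained genes numbered 769 with no demand on the interval and 202 with a pseudocount of 5. Lost genes numbered 239 at a fold of 8, 256 and 116 among genes with 10 and 20 or more sites, and 161 with a pseudocount of 5, and kept genes 1071 and 632 with these filters. The share of gained among called genes was 50.3% as reported, 62.5% and 71.2% with these filters and 63.2% with no demand on the interval. It was 42.9% with no filter, 46.6% at a fold of 2, 47.8% with 5 or more sites after scaling, 48.2% over protein-coding genes and 49.2% with a pseudocount of 0.5, so the order of both counts depends on these choices. Shared day 0 and day 10 sites were 10.7% and 4.29% at identical positions, 28.5% and 12.1% within 25 nt and 27.6% and 11.3% after merging. Genes that moved by less than 0.1 were 76.9% with 20 or more sites in both lists and 61.4% between the outermost sites, and genes with a common share of 0.5 or more were 96.2% and 79.6%, with 96.0% over 10 bins and 54.6% over 40. With 20 or more sites, 91.4% of lost and 98.3% of kept genes had a day 3 site. The cause was not tested beyond what each setting does by construction. The median log2 ratio over all genes went from 0.07 to -0.19 with 5 or more sites after scaling. The medians of the gene lists kept their sign under the 4 alternatives run for them, but their size depended on the setting. With a pseudocount of 5, that of heparan sulfate genes went from 2.10 to 0.88, of guidance genes from 3.68 to 2.04 and of germline genes from -3.93 to -1.95. With 20 or more sites, that of nuclear factor I, SOX and forkhead genes went from 1.54 to 4.10, and with median scaling that of mRNA decay genes from -0.58 to -0.05. No paired analysis was possible because the lists carry no value per library, and leaving out single replicates was not run for the same reason. Depth is unknown, so a gene without sites may have escaped calling.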

Other observations

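Noncoding genes were unevenly spread over the classes. Of the 421 lost genes 41 (9.74%) were noncoding or pseudogenes, against 3.52% of the gained, 3.08% of the kept and 3.14% of the genes in between. Over all 3745 genes the share was 3.90%. The counts that follow are read beside the 11.2% lost, 11.4% gained and 43.4% kept of all genes. Of 52 lincRNA genes that entered, 19 were lost, 8 gained and 14 kept, with a median log2 ratio of -0.96, and of 41 processed transcripts 11 were lost and 4 gained. The 24 antisense genes held 192 and 620 sites, of which Airn held 3 and 267 and Kcnq1ot1 75 and 158, and 6 were lost and 3 gained.

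Leaving out chromosome Y, where none of 5 genes was gained, chromosomes differed in their share of gained genes, with 18.3% of the 131 genes of the X chromosome and 17.2% of the 122 of chromosome 18 at one end and 5.96% of the 285 of chromosome 11 at the other. Lost genes were most frequent on chromosome 4, at 16.7% of 246. These shares were not tested and were not adjusted for gene length.

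The site numbers in the lists run higher than the number of deposited sites. The highest was 70573 on day 0, 69714 on day 3 and 137163 on day 10, so the deposited sites were 42.1%, 40.6% and 54.2% of it. What the other numbers stand for is not stated. The day 10 sites also lay slightly closer together, with 1.07 sites per cluster of neighbours within 50 nt, against 1.05 on day 0.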
